A study of Trametes cinnabarina with 16 samples.

Results

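Growth of the white-rot fungus Pycnoporus cinnabarinus (listed as Trametes cinnabarina), strain PB94, on maltose was compared with culture on no energy substrate. The comparison uses the 3 maltose libraries and the 3 control libraries among the 16 libraries of the series, chosen by their column names in one deposited table. All cultures were whole organisms in semi-minimal medium started from an agar cube carrying mycelium, so the groups differ, as far as the labels say, in the added maltose alone. The remaining libraries came from cellobiose (3), glucose (1), poplar (3) and switchgrass (3) and served to estimate the spread and as points of reference. Poly-A RNA was the input of the control and sugar libraries, and RNA depleted of ribosomal RNA that of the plant libraries. Whether the replicates came from separate cultures is not stated, so the p-values describe the spread among the libraries of all groups fitted. That spread may be technical only.

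White-rot fungi are basidiomycetes that break down lignin together with cellulose and hemicellulose, and this species is known for secreting laccase, a copper oxidase that acts on phenols. Maltose is a pair of glucose units joined by the alpha linkage of starch. Fungi either cleave it outside the cell with alpha-glucosidases or import it through maltose permeases, and the released glucose enters glycolysis. In many filamentous fungi readily used sugars repress genes for the use of other carbon sources (carbon catabolite repression), and a lack of carbon relieves that repression.

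Levels are TPM, a transcript's abundance corrected for its length and scaled to the same total in every library, so a gene's share falls when other RNA takes more of a library. The files hold 45286 assembled transcripts, summed here to 27990 assembly genes. Their identifiers are not paired with gene names, and 0 of them matched the list of 10441 genes of the reference strain BRFM137. No alpha-glucosidase, permease or laccase gene could therefore be looked up, and only 4 identifiers are named. Depth is unknown for every library, since TPM keeps none, and a value of 0 is reported only as listed at 0.

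The library names carry a doubt that touches every direction given here. A second deposited table holds the same 16 columns of values, but 0 of them carry the same name in both. In the second table the first and second maltose libraries are still named maltose, the third is named glucose, and the 3 control libraries are named switchgrass. The names of the first table were used, because under them all 16 columns of the second table follow the order of the sample list. With the names of the second table, maltose and control differed in 9206 genes, 8134 higher and 1072 lower. Its control columns are those named poplar in the first table, and its maltose columns are those named glucose and first and second maltose there. By the names used here, that count sets poly-A libraries against libraries depleted of ribosomal RNA.

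The third maltose library differed from the other maltose libraries before any test was made. Its 10 most abundant genes held 83.7% of its TPM, and 4 genes sufficed for 50% of it. The same 10 genes held 0.801% and 2.54% of the other maltose libraries and 1.73%, 1.59% and 1.36% of the control libraries. Relative to the control mean each of the 10 genes was 47.0 to 65.1 times as high in the third maltose library, 0.487 to 0.548 times in the first and 1.52 to 1.74 times in the second. The 10 genes therefore moved nearly in step with one another in each library. They came from 7 read clusters of the assembly, with 4 of them in a single cluster. The most abundant was at 177097 TPM in the third maltose library, 1908 and 5731 TPM in the other maltose libraries, and 3762 ± 358 TPM (SD, n = 3) in control, where it ranked 6th in the first library.

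Fewer genes were detected in the third maltose library. Of all genes, 55.3% were listed at 0 there, against 18.1% and 20.1% in the other maltose libraries and 17.7% to 23.6% in control. Of 9605 genes with at least 5 TPM in each of the other 5 libraries, 1236 were listed at 0 in it. Setting the 10 genes aside and rescaling the rest raised the genes at 1 TPM or more from 8544 to 11867 there, against 18014 and 17854 in the other maltose libraries. Across the 23981 genes tested its Spearman correlation was 0.597 and 0.600 with the other maltose libraries and 0.648 to 0.653 with the control libraries. The first and second maltose libraries correlated with each other at 0.941, and with the 3 control libraries, in replicate order, at 0.903, 0.871 and 0.854 for the first and at 0.905, 0.863 and 0.842 for the second. Both maltose libraries were thus nearest to the first control library.

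With all 3 maltose libraries, the test called a single gene. It fell in maltose, which is 0.00417% of the 23981 genes tested, and 0 genes (0%) were called higher (limma on log2(TPM + 1), Benjamini-Hochberg adjusted p under 0.05, with 1521 genes at an unadjusted p under 0.05). The median log2 fold change over all genes tested was -0.61, and -0.05 after median-of-ratios scaling. The 3 maltose libraries lay above all control libraries in 114 genes (0.475% of those tested) and below them in 5233 (21.8%). With the 10 genes set aside these counts were 420 (1.75%) and 4386 (18.3%).

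The called gene, TR14662__c0_g1, was at 13.2, 14.1 and 9.66 TPM in control and listed at 0 in every maltose library. In glucose it was at 19.4 TPM and in the cellobiose libraries at 5.04, 14.99 and 16.2 TPM, so it was present in every other poly-A library. It was also listed at 0 in all 6 plant libraries. The adjusted p was 0.0300 with limma, and a fold cannot be given when one group is listed at 0. Leaving out any single control library, or the first or second maltose library, ended the call (adjusted p from 0.130 to 0.413). Without the third maltose library its adjusted p was 0.000429.

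Without the third maltose library, 903 genes (3.79% of the 23822 tested) were called higher in maltose and 45 (0.189%) lower. The first and second maltose libraries lay above all control libraries in 3200 genes (13.4%) and below them in 5477 (23%). The median log2 fold change over all tested genes was then -0.08. Among the 903 genes the median was 3.25 (range 1.65 to 5.74) and among the 45 it was -2.96 (range -4.84 to -1.92). The balance of directions differed between fits to different libraries, which also tested different numbers of genes. A fit to the poly-A libraries called 796 higher (3.84%) and 533 lower (2.57%), and a fit to the maltose and control libraries alone called 401 higher (2.27%) and 571 lower (3.24%). These 3 fits shared 345 of the higher and 40 of the lower genes.

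**Figure D1:**
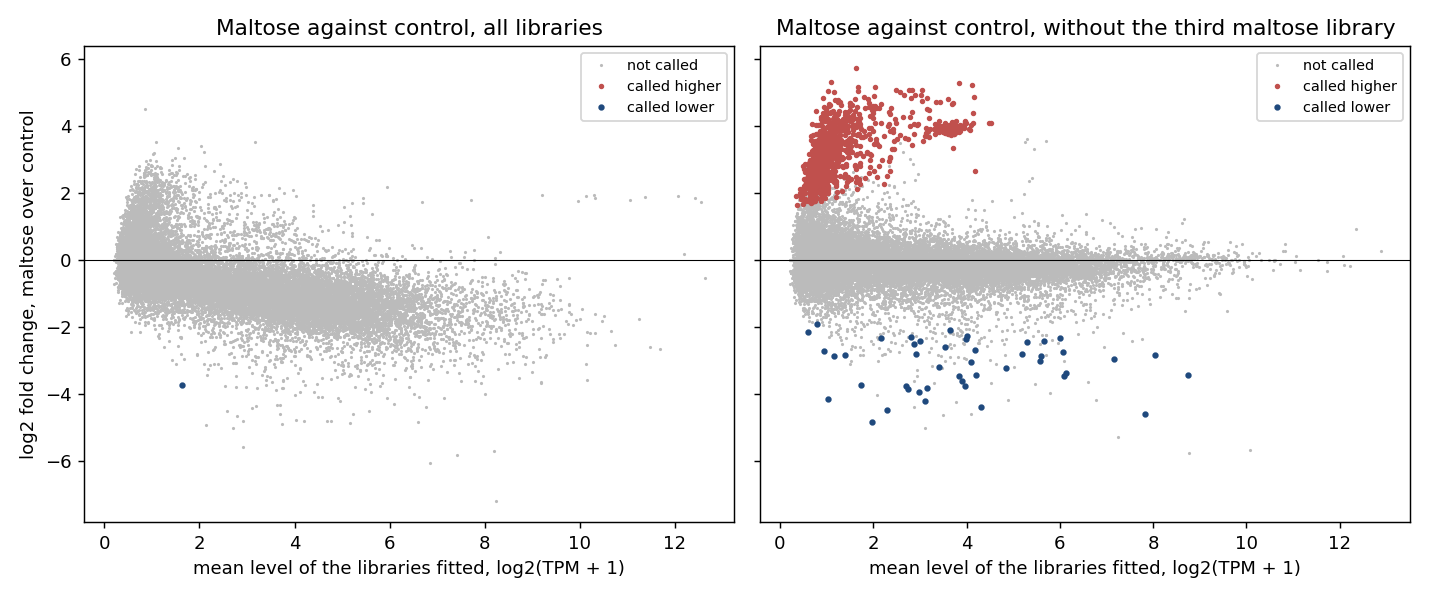
Log2 fold change of maltose over control (vertical axis) against the mean level over the libraries fitted, log2(TPM + 1) (horizontal axis), one point per gene, with all libraries at left and without the third maltose library at right. At left most genes lie below 0 and 1 is called, and at right the bulk lies at 0 with 903 genes called higher, mostly at low mean levels, and 45 lower.

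The 903 genes called higher had their highest median level in the maltose libraries numbered 1 and 2. Their median was 22.0 and 26.0 TPM there and 0 in the third maltose library. In the control libraries, in replicate order, the median was 4.33, 1.09 and 0.53 TPM. It was 1.13 TPM in glucose and 0.41, 1.02 and 0.63 TPM in cellobiose, and 0 in each of the 6 plant libraries. The first and second maltose libraries stood above every other library by this median. The first control library came next, at a median near that of all tested genes there (4.39 TPM), and 1.66% of the set was listed at 0 in it, against 9.42% of all tested genes. In the plant libraries 75.4% to 93.9% of the set was listed at 0, against 13.6% to 33.6% of all tested genes. These libraries entered the pooled spread behind the 903 calls. The fit to the poly-A libraries, which leaves them out, called 796 genes higher, of which 721 were among the 903. That fit also tested fewer genes (20752), so what the plant libraries add through the spread alone was not tested.

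Summed over the 903 genes, the share of TPM was 9.38% in the first maltose library, 14.1% in the second and 0.0135% in the third. It was 2.32%, 0.582% and 0.214% in the 3 control libraries, 0.384% in glucose, 0.188% to 0.341% in cellobiose and 0.0107% or less in the plant libraries. Setting its 10 abundant genes aside brought the third maltose library to 0.0827%. In it 755 of the 903 genes (83.6%) were listed at 0, against 50.7% of all genes tested, and 2 of the 903 (0.221%) exceeded the highest control library, against 4.36% of all tested genes. With the 10 genes set aside 11 of the 903 (1.22%) did so, against 16.6%. The third maltose library thus did not share the high levels of the other maltose libraries, with or without its 10 abundant genes. Its low detection moves with this difference, and the part it plays was not tested. The files hold no transcript sequences, so whether the 903 genes belong to the fungus itself was not tested either, and their levels are not given here as a response of the fungus to maltose.

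**Figure D2:**
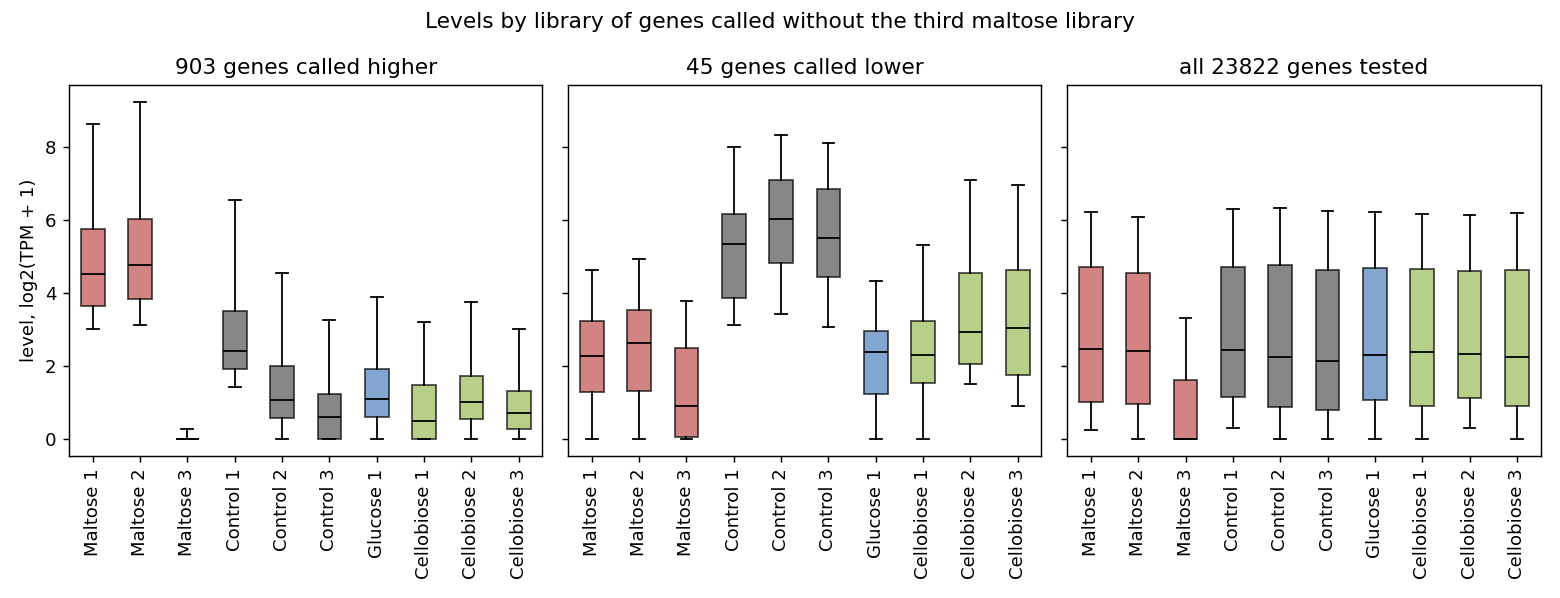
Level, log2(TPM + 1), of the 903 genes called higher, the 45 called lower and all 23822 tested genes in each poly-A library; boxes span the quartiles with the median as a line, and whiskers reach the percentiles 10 and 90. The higher genes stand out in maltose libraries 1 and 2 and next in the first control library, while the lower genes stand out in all 3 control libraries.

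The more abundant of the 903 genes were set against their level in the first maltose library. Among the 169 of them whose mean in the first and second maltose libraries was at least 100 TPM, which held 84.4% of the TPM of all 903, the level in the second maltose library was 1.59 times that in the first (median, quartiles 1.49 and 1.67). The 1672 tested genes at that level had a median ratio of 0.921 (quartiles 0.822 and 1.05). In the first control library the 169 genes stood at 0.265 of their level in the first maltose library (quartiles 0.197 and 0.289). The corresponding ratios were 0.0665 in the second control library (quartiles 0.0428 and 0.0766) and 0.0235 in the third (quartiles 0.0159 and 0.0282). In glucose the ratio was 0.0324, and in the 3 cellobiose libraries it was 0.0210, 0.0347 and 0.0183. For all 1672 genes at this level the ratios to the first maltose library were 0.985, 1.00 and 1.02 in the 3 control libraries. The 169 genes were chosen by their maltose levels, so these values are a description and were not tested.

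The order of abundance was compared by rank correlation. Across the 169 genes the Spearman correlation with the first maltose library was 0.980 for the second, 0.941, 0.892 and 0.884 for the control libraries in replicate order, and 0.894 for glucose. It was 0.813, 0.891 and 0.909 for the cellobiose libraries. Over all 903 genes it was lower, at 0.906 for the second maltose library, 0.785, 0.807 and 0.841 for the control libraries and 0.717 for glucose. All tested genes gave 0.971, 0.922, 0.901, 0.912 and 0.915 in the same order. The 1672 tested genes at 100 TPM or more, which include the 169, gave 0.929, 0.774, 0.624, 0.654 and 0.668. At that level the 169 genes thus kept their order more closely than all genes did. These are correlations across genes, which are not independent replicates, and over the genes with at least 1 TPM in both libraries (152 to 169 of the 169, and 284 to 903 of the 903).

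**Figure D3:**
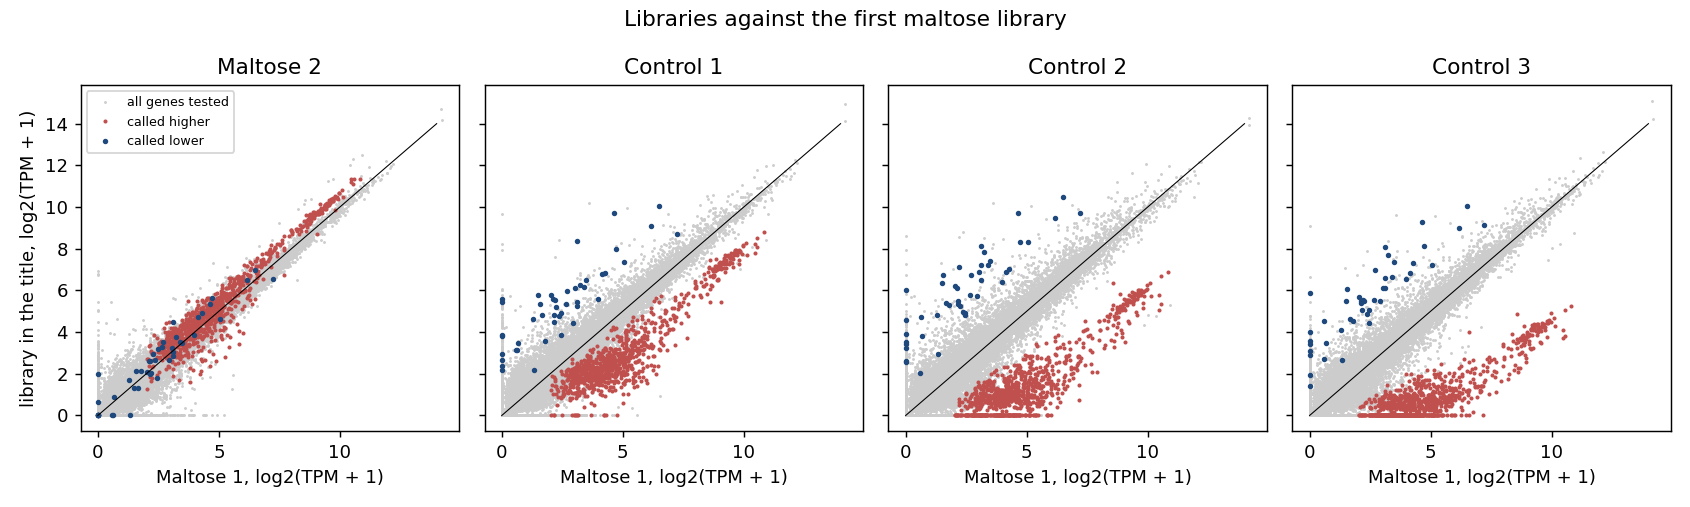
Level in the second maltose library and in each control library (vertical axes, log2(TPM + 1)) against the first maltose library (horizontal axis, same scale), one point per gene, with the line of equal levels. The 903 genes called higher form a band parallel to that line, which lies slightly above it in the second maltose library and below it in the control libraries, least in the first and most in the third.

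The order of the control libraries was nearly uniform over the set. The first control library was the highest of the 3 in 878 of the 903 genes (97.2%), against 37.5% of all tested genes, and in 660 (73.1%, against 18.9%) the second control library lay between it and the third. The genes of the set thus varied together among the controls and are not separate observations. Without control library 1, 897 genes were called higher, of which 729 were among the 903. Leaving out control library 2 or 3 instead kept 733 and 706 of the 903, in that order.

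The assembly described the higher genes as simpler than average. A single transcript was assembled for 869 of the 903 (96.2%), against 74.8% of all tested genes and 71.1% of the 45 lower genes. These shares are not matched for level. Of the 903 genes 156 lay above the median level of the genes tested, and of the 45 lower genes 37 did. The part that level plays was not tested. The 903 genes came from 783 read clusters, and 213 of them shared a cluster with another gene of the set, so some may be parts of one locus or near-identical copies whose reads cannot be separated.

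TR5462__c0_g3 had the largest fold change of the higher genes above the median level whose groups did not overlap. The maltose libraries held it at 1406, 2316 and 1.58 TPM, in replicate order, and the control libraries at 222, 32.5 and 12.2 TPM. The third maltose library lay below every control library and the other maltose libraries above all of them, so the groups overlap when it is counted. Glucose was at 39.1 TPM, cellobiose at 8.55, 18.4 and 12.9 TPM, and no plant library exceeded 0.77 TPM. Without the third maltose library the log2 fold change was 5.29 ± 0.82 (SE; limma adjusted p = 0.000811), and with it 2.14 ± 1.64 (adjusted p = 0.564).

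TR17602__c0_g1 followed the same course. The maltose libraries held 1514, 2624 and 1.97 TPM of it, and the control libraries 272, 39.1 and 12.9 TPM. The first control library again lay nearest to the first and second maltose libraries. In glucose it was at 54.0 TPM and in cellobiose at 13.3, 30.2 and 20.4 TPM. The log2 fold change was 5.22 ± 0.88 without the third maltose library (limma adjusted p = 0.00138) and 2.09 ± 1.65 with it (adjusted p = 0.569). In the fit to the maltose and control libraries alone, the adjusted p without the third maltose library was 0.0597 for TR5462__c0_g3 and 0.0666 for TR17602__c0_g1.

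**Figure D4:**
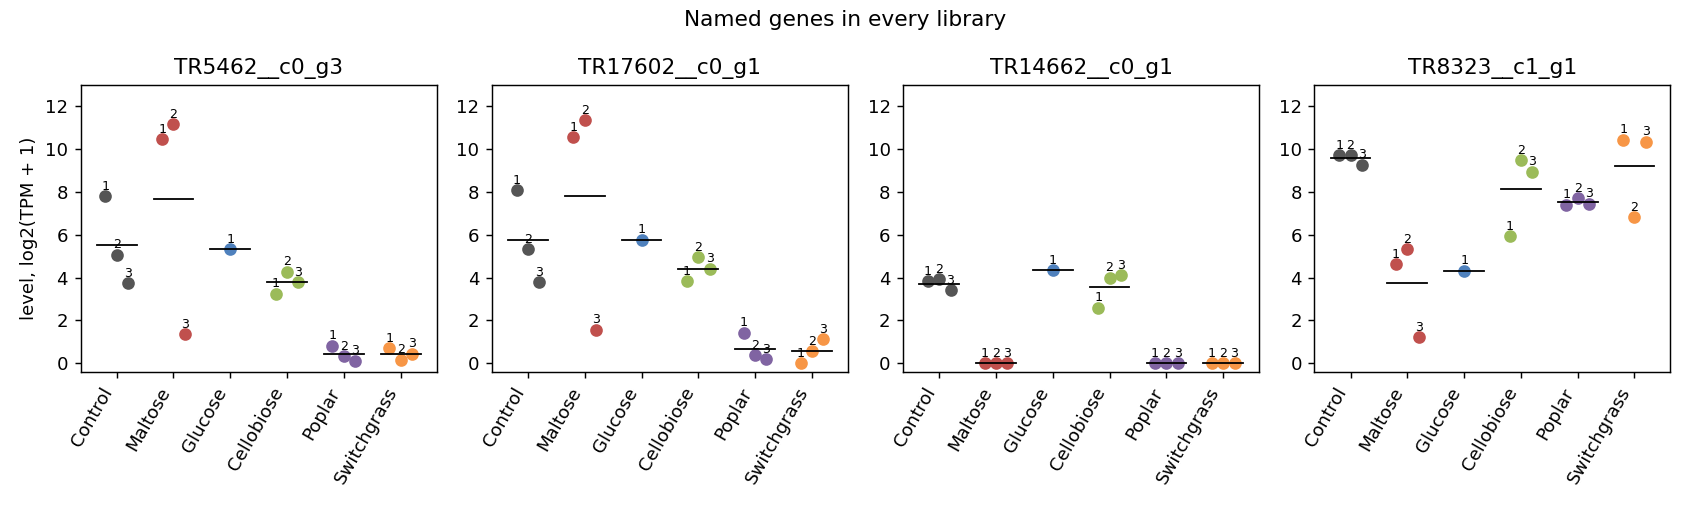
Level, log2(TPM + 1), of the 4 named genes in every library of the series, with replicate numbers beside the points and the group mean as a line. TR5462__c0_g3 and TR17602__c0_g1 are highest in maltose libraries 1 and 2 and next in control library 1, TR14662__c0_g1 is listed at 0 in maltose and in the plant libraries, and TR8323__c1_g1 is low in maltose and glucose.

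The 45 genes called lower were well expressed without an energy source. Their median was 39.8, 63.9 and 44.7 TPM in the control libraries and 3.79, 5.13 and 0.86 TPM in the maltose libraries, again in replicate order. In contrast to the higher genes, the 3 control libraries were alike and the third maltose library lay on the same side as the others. In it 40 of the 45 genes (88.9%) were below the lowest control library, but so were 73.0% of all tested genes. With the 10 abundant genes set aside these shares were 82.2% (37 of 45) and 60.2%. In the fit with all libraries all 45 had a negative fold change, as did 19208 of the 23822 genes, and 41 had an unadjusted p under 0.05, as did 1508 of the 23822. That fit shares 5 of its 6 maltose and control libraries with the one that called the 45, so the sign was largely set by the choice. Of the 45, 1 passed the adjustment. Which genes were called lower depended on the libraries fitted. Leaving out control library 1, 2 or 3 as well as maltose library 3 kept 35, 20 and 21 of the 45, in that order. With a further maltose library left out that group holds 1 library, so such a fit cannot show which of the 45 hold.

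Most of the 45 genes were also low on the other sugars. The median was 4.18 TPM in glucose and 3.95, 6.69 and 7.26 TPM in the 3 cellobiose libraries. The glucose library was below the lowest control library in 41 of the 45 (91.1%, against 21.7% of all tested genes), and all 3 cellobiose libraries were below it in 35 (77.8%, against 16.4%). Both held in 34 genes (75.6%, against 8.46%). These comparisons share the control libraries that were used to call the 45 genes, so some excess is built in. On plant substrates the medians were 3.87 to 10.5 TPM in poplar and 6.47 to 18.8 TPM in switchgrass, all below the control medians, in libraries of another preparation. The summed share of TPM of the 45 genes did not order the libraries as the medians did. It was 0.503% to 0.714% in control, 0.0563% and 0.0647% in the first and second maltose libraries, 0.0399% in glucose, 0.339% to 0.545% in cellobiose and 0.717% to 1.39% in the plant libraries. The highest level of any of the 45 genes in each cellobiose library was 2830, 3415 and 3707 TPM, which is most of the summed share there. In the control libraries that highest level was 1046 to 1408 TPM. Whether the same gene held it in each library was not examined.

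By its medians in the control and sugar libraries, the wider list from the poly-A fit had the same profile at smaller differences. Its 533 lower genes, of which 41 were among the 45, had a median of 42.2, 54.4 and 45.3 TPM in the control libraries, 17.8 TPM in the first and 17.6 TPM in the second maltose library, 16.4 TPM in glucose and 21.2, 25.6 and 25.3 TPM in cellobiose. Together they held 5.55% to 6.61% of TPM in control, 2.84% in the first and 2.65% in the second maltose library, and 2.73% in glucose. In cellobiose their share was 5.41% to 6.30%, near that of control. In the plant libraries it was 1.89% to 5.98%, whereas the 45 genes held a larger share in every plant library than in control. The highest level of any of the 533 in each library was 8003 to 10551 TPM in cellobiose and 1593 to 2324 TPM in control, not necessarily in the same gene. Glucose was below the lowest control library in 498 of the 533 (93.4%, against 21.7% of the 23822 genes). All 3 cellobiose libraries were below it in 376 (70.5%, against 16.4%). Both counts again use the control libraries that served to call the genes.

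TR8323__c1_g1 had the largest fall of the 45 genes that met the rule for named genes. Control held 837, 839.5 and 616 TPM of it and maltose 23.8, 39.3 and 1.34 TPM, with no overlap between the groups. The glucose library, at 18.9 TPM, lay with maltose. The cellobiose libraries, at 60.8, 716 and 491 TPM, spread from near the maltose level to the control range. It was at 170 to 207 TPM in poplar and at 1385, 112 and 1309 TPM in switchgrass. Without the third maltose library the log2 fold change was -4.58 ± 1.00 (SE; limma adjusted p = 0.00942), and with it -5.83 ± 1.18 (adjusted p = 0.233). Without the first or second maltose library as well, which leaves a single maltose library, the log2 fold change was -4.23 or -4.93. With median-of-ratios scaling the limma adjusted p without the third maltose library was 0.108.

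The count of 948 calls rested on several choices. A pseudocount of 0.1 left 0 higher genes and 1 lower, and a filter at 5 TPM left 381 and 40. Leaving out control library 3 as well left 706 and 24. For 3 libraries in each group the smallest p of an exact permutation test on a single gene is 0.1, and none was run.

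**Figure D5:**
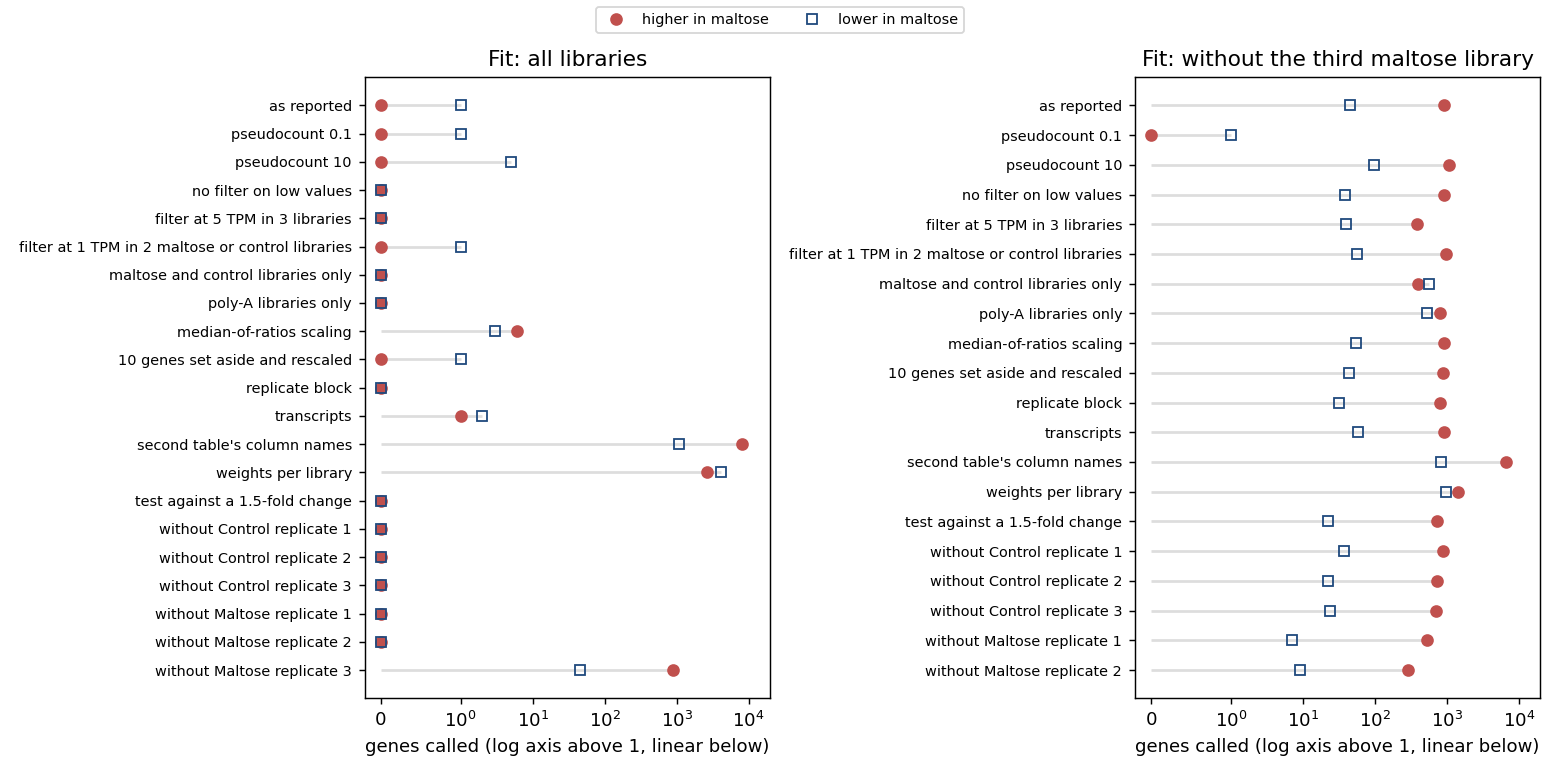
Number of genes called higher (filled circles) and lower (open squares) in maltose under each setting, on an axis that is logarithmic above 1, for the fit with all libraries at left and without the third maltose library at right. At left most settings give 0 or 1 call and the second table's names give the most, 9206. At right the higher calls range from 0 to 6710, the latter under the second table's names, where a different library is left out.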

How the data were processed

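Expression was deposited by the authors as TPM per assembled transcript in a pair of tables. One is presented as holding expected counts, but every column sums to 1000000 within 0.87, so the values are TPM. The submitters' processing notes name RSEM, and its version, the assembler, the aligner and the filters are not given here. Isoforms were summed to genes, and genes with at least 1 TPM in at least 3 of the libraries fitted were tested with limma 3.58.1 (R 4.3.3, intensity trend) on log2(TPM + 1), which understates the change of low genes. The fit covered all 16 libraries as 6 group means, or 15 without the third maltose library, with Benjamini-Hochberg adjustment over all genes tested and calls at 0.05. The fit was tested on simulated data, with noise drawn independently for each gene and changes only in genes above the median level. Of the 903 genes called higher 156 lay above that level, and the set varied together, so that test does not cover these calls. Named genes were at most 2 per direction: genes called with all libraries first, then the largest changes called without the third maltose library among genes above the median level whose groups did not overlap. The comparison, the lists and the settings were chosen with earlier results of these data known. No column was left out (0).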

Additional observations from a re-analysis of the deposited data

How the results depend on the processing

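With all libraries the single call remained 1 with a pseudocount of 0.1, with a filter on maltose and control libraries alone and with the 10 genes set aside. It became 5 with a pseudocount of 10, 9 with median-of-ratios scaling (6 higher, 3 lower), 3 for transcripts, 6708 with weights per library (2632 higher, 4076 lower), whose estimation did not converge, and 9206 under the second table's names. It became 0 without a filter, with a filter at 5 TPM, in fits to the poly-A or to the maltose and control libraries, with the replicate block and against a 1.5-fold change. Leaving out one library gave 0 to 948 calls, the highest without the third maltose library.

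Without the third maltose library 10 of 14 alternatives stayed within 1.5 times the 948 calls, by the total alone and not by which genes were called. Among the 10 is the fit to the maltose and control libraries, with 972 calls. It shared 347 of the 903 higher and 43 of the 45 lower genes. The exceptions to the 1.5-fold range were 1 with a pseudocount of 0.1, 421 with the filter at 5 TPM and 2397 with weights (1431 higher, 966 lower). The last exception was 7530 under the second table's names, with another library left out. Leaving out one more library gave 302 to 934. Under the second table's names TR14662__c0_g1 turned to a log2 difference of 1.45 with all libraries (adjusted p = 0.189) and 2.18 without one (adjusted p = 0.0675). Its call with all libraries was lost with its direction kept in 12 of 19 alternatives and with its direction reversed in 1. Without the third maltose library the call was lost in 2 of 18 alternatives for TR5462__c0_g3, 3 for TR17602__c0_g1 and 4 for TR8323__c1_g1. The 18 alternatives include fits that leave a single maltose library. The causes were not tested.

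Deviations of same-numbered maltose and control libraries from their group means correlated at -0.03, -0.01 and 0.07 across genes. The maltose mean includes the third maltose library, so these values cannot decide whether the replicate numbers pair the libraries. With the replicate block 832 genes were called without the third maltose library (800 higher, 32 lower). TPM keeps no depth, so what depth limits is unknown.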
